A study of Homo sapiens with 6 samples.

Results

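The ribosome biogenesis and RNA polymerase I factors examined here are 45 genes, chosen by symbol from textbook roles in making ribosomes, out of 69292 gene IDs in the count table. The choice was made with earlier results of these data known. All 45 were found and all 45 passed the filter on low counts. The cells were MDA-MB-231, an established line from a human breast cancer of the triple-negative type, and RNA was sequenced in 6 libraries, 2 for each of 3 groups. The parental group had no drug according to the protocol, while a treatment label gives it DMSO. The everolimus-resistant line had been kept for months in 20 µM everolimus, and the ridaforolimus-resistant line in 30 µM ridaforolimus. Both drugs are rapamycin analogs that inhibit mTOR complex 1 through the protein FKBP12. Their doses differ, so a difference between the resistant lines is a difference between 2 lines at 2 doses. Each resistant line is a single derivative, and no label says whether its 2 libraries came from separate cultures, so the tests measure the spread between these libraries, which may be technical.

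Ribosomes are built in the nucleolus. RNA polymerase I transcribes the precursor of the large ribosomal RNAs, small nucleolar ribonucleoproteins (snoRNPs) modify and guide the cutting of that precursor, and many assembly factors join and leave the growing small and large subunits before export. mTOR complex 1 is a known activator of this process, acting on the Pol I initiation factor encoded by RRN3 among others, and MYC binds the E-box sequence CACGTG in promoters of many of these genes. Messenger RNA of assembly factors does not measure the rate at which ribosomes are made. The library kit selected polyadenylated RNA, so ribosomal RNA was not measured.

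The promoters of the group are shown first because an E-box was frequent in them. RefSeq promoter sequences (build GRCh38.p14, from 250 bases before to 50 after the start) were matched for 38 of the 45 members. CACGTG, searched on both strands (it reads the same on each), stood in 17 of these 38, or 44.7%. The same letters stood in 11.7% of the promoters of 12406 tested genes and in 7.26% of all 35116 promoters. Windows of 30 bases are printed for the members whose values are given by library below, with the E-box in capitals.
FBL (chr19:39846356-39846385, minus strand): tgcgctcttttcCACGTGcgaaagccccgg
GNL3 (chr3:52686026-52686055, plus strand): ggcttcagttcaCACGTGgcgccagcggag
NOP2 (chr12:6568242-6568271, minus strand): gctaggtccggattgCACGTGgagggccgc
NOP10, far copy (chr15:34343289-34343318, minus strand): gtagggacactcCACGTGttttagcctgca
NOP10, near copy (chr15:34343130-34343159, minus strand): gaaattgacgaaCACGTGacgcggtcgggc
UTP20 (chr12:101280083-101280112, plus strand): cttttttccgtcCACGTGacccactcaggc
Counting the first base of the transcript as 1, the copies began at base 7, 7 and 36 in FBL, GNL3 and NOP2, and 10 bases before it in UTP20. NOP10 carried 2 copies, beginning 170 and 11 bases before its start. These matches describe the letters only and say nothing of binding in these cells.

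None of the 5 Pol I members had CACGTG in its window, but 3 of them, POLR1B, POLR1C and RRN3, had the letters CCGGAAGT, the core of an ETS-factor motif. CCGGAAGT, on either strand, stood in 10 of the 38 members, or 26.3%, against 8.98% of the promoters of tested genes. Those 3 copies lay on the reverse strand and are printed as they read on the strand of the gene, in capitals.
POLR1B (chr2:112542411-112542440, plus strand): ctgcggccactACTTCCGGcgtgtaccgag
POLR1C (chr6:43516950-43516979, plus strand): ggacaaaagcaACTTCCGGaagctggggac
RRN3 (chr16:15094292-15094321, minus strand): tggcacgcgcaACTTCCGGgacagaggctg
A longer motif, that of NRF1, stood in DKC1, NOB1 and DDX10 only, or 7.89% of the 38 members against 2.41% of tested genes. The YY1 motif stood in POLR1C alone, 2.63% of the members against 2.84% of tested genes. E-box, NRF1, YY1 and ETS searches can overlap in a promoter, and NOP10, for example, held both an E-box and CCGGAAGT.

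Total counts were 13134567 to 15556246 per library, and the members took 0.433% to 0.702% of them. The mesenchymal marker VIM stood at 302 to 646 CPM (counts scaled to a common library size), the luminal hormone receptor gene ESR1 at 0.435 to 0.916 CPM, the T-cell gene CD3E and the fibroblast gene LUM were at 0 in every library, and PTPRC of leukocytes was at most 0.511 CPM. Other markers on those lists were detected at low levels: COL1A1 of fibroblasts at 5.14 to 15.6 CPM, PECAM1 and KDR of endothelium at up to 11.5 and 4.89 CPM, and CD14 of leukocytes at up to 2.14 CPM. The luminal keratin genes KRT8 and KRT18 were also expressed, at 263 to 428 and 107 to 219 CPM. KRT8 was above VIM in both parental libraries (391 and 345 against 302 and 323 CPM) and below it in the resistant libraries. One library, the second of the ridaforolimus-resistant line, stood apart: on the first principal component of all genes at 10 CPM or more, which held 41.9% of the variance, it lay at 42.5 and the other 5 libraries between -25.2 and 11.1.

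Levels between members are compared per kilobase of exon, on the CPM scale. NPM1, which encodes the abundant nucleolar chaperone nucleophosmin, was highest at a mean of 313 CPM per kb over the 6 libraries. NOP10 (114), NCL (101), FBL (89.5), DDX21 (71.8) and NOLC1 (61.6) followed, and the order then ran from DKC1 at 34.1 down to NIP7 at 10.1 CPM per kb. At the low end stood POLR1C (5.41), PPAN (4.91) and NOP2 (0.262). NOP2, a ribosomal RNA methyltransferase gene, was thus the only member under 1 CPM per kb. A same-strand gene model (ENSG00000285238) with 0 counts covers 54.4% of the exonic bases of NOP2, and the read-through model PPAN-P2RY11, with a mean count of 0.5, covers 56.0% of those of PPAN. The part of this sharing in their low counts was not tested. Shared exonic bases were measured only for NOP2, PPAN, RRS1 and UTP4, which a same-strand protein-coding gene model overlaps. The share was 11.4% in RRS1 and 0% in UTP4, and it was not measured for other members.

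No member passed an adjusted p of 0.05 in any comparison. In bulk RNA, fewer cells expressing a gene and less of its RNA per cell cannot be told apart. In everolimus-resistant over parental cells 0 of 45 passed, where 0.00471% of all genes tested did (1 gene). In ridaforolimus-resistant over parental cells 0 of 45 passed against 0.320% of genes (68 genes), and between the 2 resistant lines 0 of 45 against 0.744% (158 genes). At an unadjusted p under 0.05, 1, 6 and 6 members were lower in those comparisons, where 4.53%, 7.17% and 6.56% of all genes were lower. None was higher, where 4.26%, 7.35% and 7.58% of all genes were. Of the 10300 genes at a mean of 10 CPM or more, 540, 994 and 839 were lower and 389, 663 and 762 higher at that p. The lowest adjusted p of a member was 0.542 (RRN3), 0.194 (NOP10) and 0.230 (POLR1A). The standard error of a member's log2 fold change had a median of 0.26, and the 95% interval reached a median of 0.60 to either side. For ridaforolimus-resistant over parental cells 21 of the 45 intervals reached below -1 and none reached above 1.

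Most estimates in the ridaforolimus-resistant line were below 0. Of the 45 log2 fold changes over parental cells, 40 were below 0, with a median of -0.32, where 48.7% of all genes tested were below 0 and their median was 0.01. In the everolimus-resistant line 22 of 45 were below 0 and the median was 0.04, where 47.6% of all genes were below 0 and their median was 0.02. Ridaforolimus-resistant over everolimus-resistant cells gave 40 of 45 below 0 and a median of -0.29, where 51.7% of genes were below 0 and the median was -0.02. Genes at a mean of 10 CPM or more were more often below 0 than all genes tested. The shares were 57.7% in the ridaforolimus line, 53.1% in the everolimus line and 55.4% between the lines. Their medians were -0.07, -0.02 and -0.05. The comparisons of the ridaforolimus line share the ridaforolimus libraries, and both comparisons with parental cells share the parental libraries. Both ridaforolimus libraries lay below both parental ones for 21 members and above both for 1, where 24.3% of all genes were lower and 25.1% higher in this way. In the everolimus line the counts were 10 and 4 of 45, against 20.5% and 20.6% of all genes. Between the lines they were 10 and 1, against 20.4% and 20.9%. Of the 10300 genes at 10 CPM or more, 3238 were lower and 2213 higher in this way in the ridaforolimus line. The counts were 2648 and 1778 in the everolimus line, and 2253 and 2013 between the lines.

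**Figure D1:**
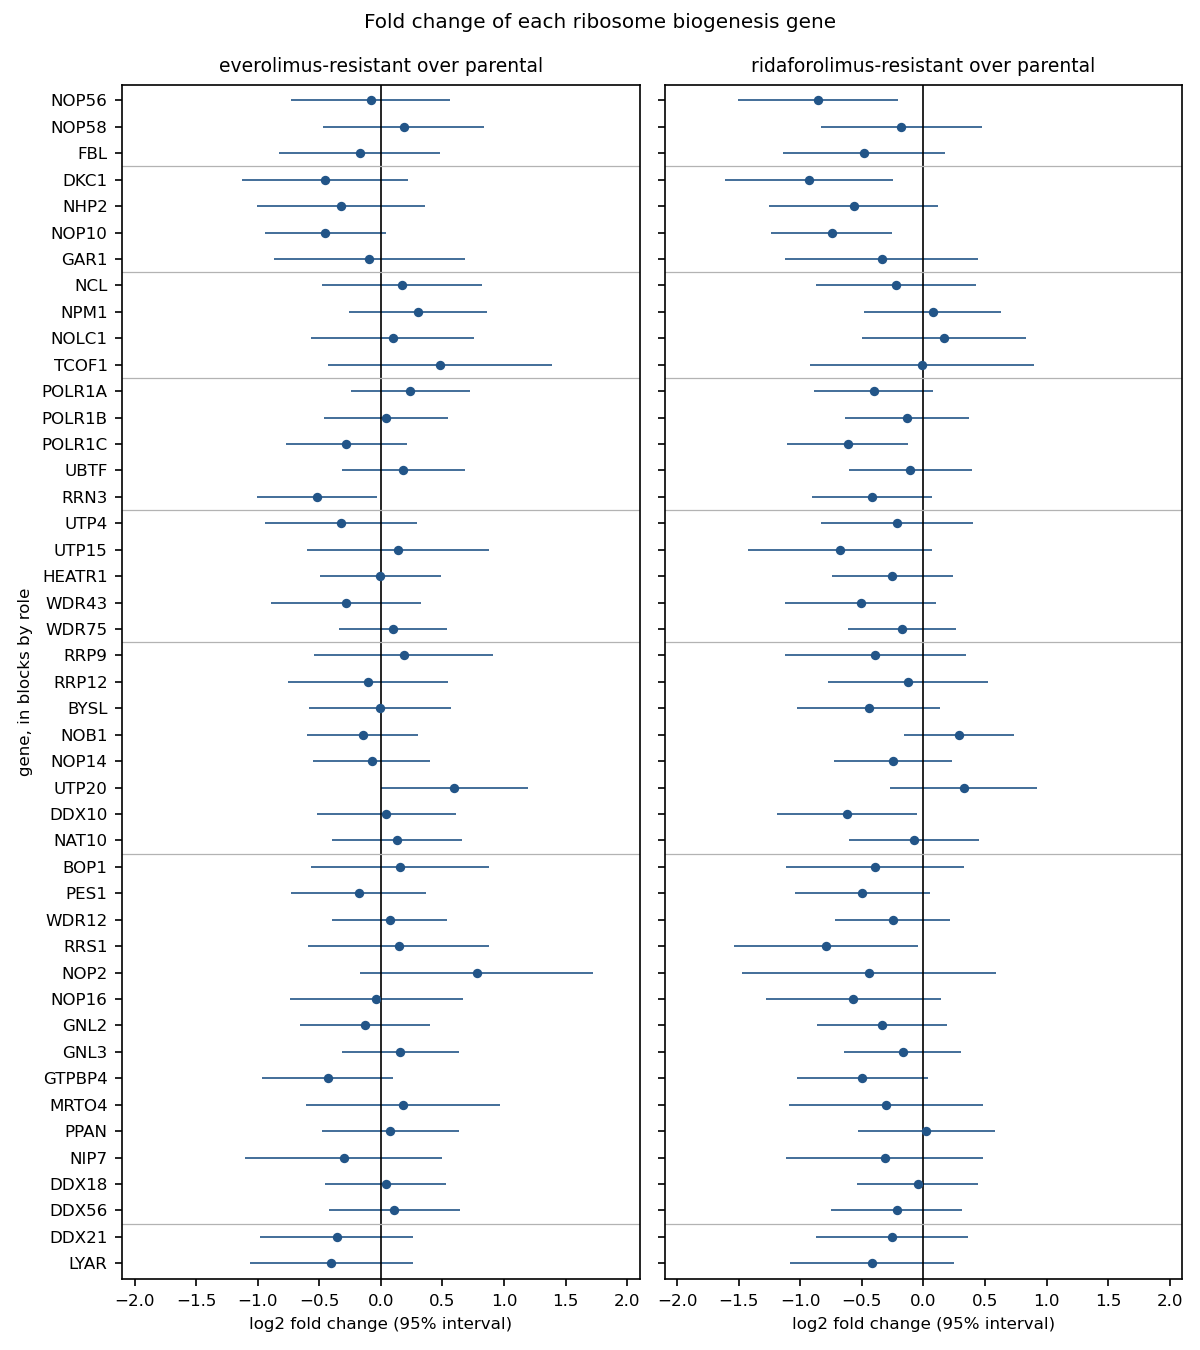
Log2 fold change (x axis) of each of the 45 genes (y axis, in blocks by role) in everolimus-resistant (left) and ridaforolimus-resistant (right) over parental cells, as points with 95% intervals derived from the edgeR F statistic. In the left panel 22 points lie below 0 and 1 interval lies wholly below it, and in the right panel 40 points lie below 0 and 6 intervals lie wholly below it.

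The size of the members' median in the ridaforolimus line depended on its second library. The median of the members' log2 levels, each relative to the gene's mean over the 6 libraries, was 0.08 and 0.18 in parental 1 and 2, -0.09 and 0.31 in everolimus 1 and 2, and 0.06 and -0.49 in ridaforolimus 1 and 2. Ridaforolimus 2 was the lowest of the 6 libraries for 40 of 45 members and the highest for none, while everolimus 2 was the highest for 24 and the lowest for none. Of all 21223 genes tested, ridaforolimus 2 was the lowest library for 4905 and the highest for 4950. Everolimus 2 was the highest for 4229 and the lowest for 4379. Summed over the members, the levels were 5906 and 6301 CPM in the parental, 5469 and 7217 CPM in the everolimus and 6296 and 4250 CPM in the ridaforolimus libraries. The group means were 6104 ± 279, 6343 ± 1236 and 5273 ± 1447 CPM (SD, n = 2), so the ridaforolimus mean differed from the parental mean by less than the spread between its own libraries. Without ridaforolimus 2 the median log2 fold change over parental cells was -0.047, with 28 of 45 below 0 and none at an unadjusted p under 0.05, and without ridaforolimus 1 it was -0.69, with 42 below 0. The everolimus median moved likewise with its second library, to -0.23 without it (37 of 45 below 0) and to 0.19 without the first. Single members kept estimates below 0 in the ridaforolimus line without ridaforolimus 2, among them NOP10 (-0.64), NOP56 (-0.61), DKC1 (-0.53), RRS1 (-0.48) and POLR1C (-0.40).

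Most members differed in the same direction between the libraries of each resistant line. In the ridaforolimus line 44 of the 45 genes were higher in the first library, with PPAN as the exception, where 56.6% of all genes at 10 CPM or more were, and the larger value was a median 1.44 times the smaller, where the median of all genes at 10 CPM or more was 1.21. In the everolimus line 5 were higher in the first library and 40 in the second, where 42.4% of all those genes were higher in the first, with a median ratio of 1.26 against 1.23. The parental libraries differed least, by a median ratio of 1.11 against 1.12, and 16 members were higher in the first, where 45.2% of all those genes were. The widest gaps were those of TCOF1, 2.27 times in the everolimus libraries, and NIP7, 2.21 times in the ridaforolimus libraries. The 21 proliferation marker genes, such as MKI67, TOP2A and the MCM helicase genes, were likewise highest in everolimus 2 and lowest in ridaforolimus 2, over a wider range, with medians of -0.21, 0.35, -0.38, 0.71, 0.22 and -0.70 in parental 1 and 2, everolimus 1 and 2 and ridaforolimus 1 and 2. Their summed level ran from 3940 to 5268 CPM in the parental, 3584 to 6905 in the everolimus and 2615 to 4890 in the ridaforolimus libraries. The share of counts from the mitochondrial genome was 4.38% and 3.001%, 2.38% and 2.15%, and 2.42% and 3.19% in the same order. Their part in the results was not tested.

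**Figure D2:**
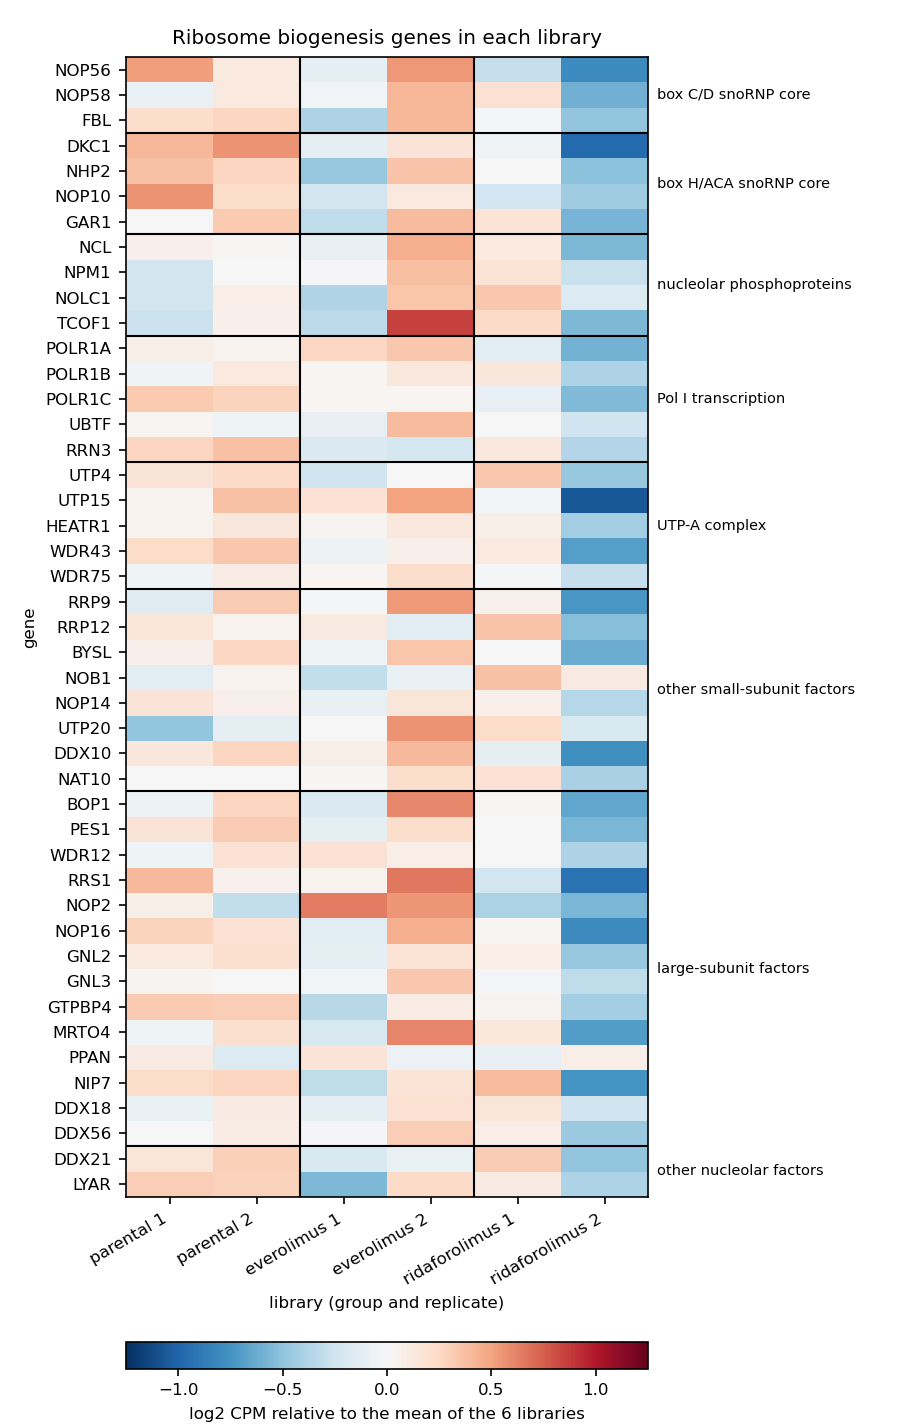
Log2 CPM of each of the 45 genes (rows, in blocks by role) relative to its mean over the 6 libraries (columns), from blue (lower) to red (higher). The ridaforolimus 2 column is lowest for 40 genes and the everolimus 2 column is highest for 24. Over all 21223 genes tested those counts are 4905 and 4229.

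Transcription of ribosomal RNA came first in role. The 5 Pol I members had a median log2 fold change of 0.04 in the everolimus line and -0.40 in the ridaforolimus line, where all 5 were below 0 and 1 (POLR1C) had an unadjusted p under 0.05. Of these, POLR1A (ENSG00000068654, chr2:86020216-86106155), the largest catalytic subunit, was at 299.7 and 293 CPM in the parental, 341 and 358 in the everolimus and 260 and 189 in the ridaforolimus libraries. Both everolimus libraries lay above and both ridaforolimus libraries below the parental pair. Its log2 fold change was 0.24 ± 0.21 (SE) and -0.40 ± 0.21 over parental cells, and -0.64 ± 0.21 between the lines (adjusted p = 0.230). In the ridaforolimus line it was -0.18 without ridaforolimus 2 and -0.66 without ridaforolimus 1.

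POLR1B (ENSG00000125630, chr2:112541915-112577150), the second-largest subunit, was at 67.5 and 76.0 CPM in the parental, 71.2 and 76.5 in the everolimus and 77.2 and 53.6 in the ridaforolimus libraries. Ridaforolimus 1 was the highest and ridaforolimus 2 the lowest of the 6, so the groups overlapped. POLR1C (ENSG00000171453, chr6:43509702-43562419), a subunit shared with RNA polymerase III, was at 37.1 and 35.8, 29.9 and 30.0, and 27.4 and 20.1 CPM in the same order. The 3 groups did not overlap for POLR1C, and its log2 fold change over parental cells was -0.28 ± 0.21 (adjusted p = 0.748) in the everolimus and -0.62 ± 0.22 (adjusted p = 0.265) in the ridaforolimus line. XPO5 and YIPF3 overlap POLR1C on the other strand, and the strand setting of the counting is not given in the sources used here. A protein-coding gene overlaps 15 members on the other strand, among them RRN3, GNL3, NHP2 and MRTO4.

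UBTF (ENSG00000108312, chr17:44205033-44221626), the factor that opens ribosomal DNA chromatin, was at 116 and 109 CPM in the parental, 106 and 149 in the everolimus and 113 and 95.8 in the ridaforolimus libraries, and its groups overlapped in every comparison. RRN3 (ENSG00000085721, chr16:15060022-15094317), which encodes TIF-IA and carries the growth signal from mTOR to Pol I, was at 62.3 and 66.8, 45.6 and 44.4, and 56.6 and 40.0 CPM. All 4 resistant libraries lay below both parental ones. RRN3 had the lowest estimate of the 45 in the everolimus line, -0.52 ± 0.21, with an interval of -1.01 to -0.03 and an adjusted p of 0.542, and it stood at -0.42 ± 0.21 in the ridaforolimus line (adjusted p = 0.406). The 5 annotated RRN3 pseudogenes summed to a mean of 67 counts per library against 726 for the gene, so reads shared with them leave its level uncertain.

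The core proteins of the box C/D snoRNPs, which guide ribosomal RNA methylation, had medians of -0.08 and -0.48 in the everolimus and ridaforolimus lines. NOP56 (ENSG00000101361, chr20:2652145-2658393), a scaffold protein of that complex, was at 172 and 131 CPM in the parental, 111 and 175 in the everolimus and 98.5 and 69.2 in the ridaforolimus libraries. Both ridaforolimus libraries were below all others, and the log2 fold change over parental cells was -0.85 ± 0.28 (adjusted p = 0.250). Its adjusted p was 0.0175 without a filter on low counts, the only setting under 0.05 and one in which many more genes passed. FBL (ENSG00000105202, chr19:39834458-39846414), the methyltransferase fibrillarin, was at 220 and 228, 145 and 252, and 187 and 135 CPM. Its everolimus libraries lay on both sides of the parental pair, and the ridaforolimus pair lay below it at -0.48 ± 0.29 (adjusted p = 0.482). NOP58, the partner of NOP56, was nearer to 0, at -0.18 ± 0.28 in the ridaforolimus line, with overlapping groups.

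The box H/ACA snoRNP genes, whose proteins guide the change of uridine to pseudouridine, had the lowest role median in both lines, -0.39 in the everolimus and -0.66 in the ridaforolimus line, with all 4 below 0 in each. DKC1 (ENSG00000130826, chrX:154762742-154777689), the pseudouridine synthase dyskerin, which is also part of telomerase, was at 181 and 201 CPM in the parental, 126 and 152 in the everolimus and 131 and 69.1 in the ridaforolimus libraries. All 4 resistant libraries were below the parental pair, and ridaforolimus 2 was lowest. The log2 fold change was -0.46 ± 0.29 (adjusted p = 0.706) in the everolimus line. In the ridaforolimus line it was -0.93 ± 0.30 (adjusted p = 0.234, and 0.00667 without a filter on low counts, the only setting under 0.05). That estimate was -0.53 without ridaforolimus 2 and -1.48 without ridaforolimus 1. NOP10 (ENSG00000182117, chr15:34341713-34343177), a small core protein, was at 90.7 and 71.8, 52.2 and 66.6, and 51.9 and 45.004 CPM. It had the lowest adjusted p of all members in the ridaforolimus line, at -0.75 ± 0.21 (adjusted p = 0.194), and stood at -0.45 ± 0.21 (adjusted p = 0.596) in the everolimus line. NHP2 was at -0.32 ± 0.30 and -0.57 ± 0.30, and GAR1 at -0.09 ± 0.34 and -0.34 ± 0.34.

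The 4 nucleolar phosphoproteins had a median near 0 in the ridaforolimus line (0.03) and above 0 in the everolimus line (0.24). NPM1 (ENSG00000181163, chr5:171387116-171411137) was at 1005 and 1180 CPM in the parental, 1162 and 1534 in the everolimus and 1328 and 972 in the ridaforolimus libraries, with overlapping groups. NCL (ENSG00000115053, chr2:231453531-231483641), nucleolin, was at 714 and 687, 639.8 and 937, and 742 and 461 CPM, again overlapping. NOLC1, a snoRNP chaperone, was at 0.09 ± 0.29 and 0.17 ± 0.29 on the log2 scale in the everolimus and ridaforolimus lines. TCOF1, the treacle protein that links UBTF to Pol I, was at 0.48 ± 0.40 and -0.01 ± 0.40, with the widest interval of this role. NPM1 has 49 annotated pseudogenes, which summed to a mean of 785 counts per library against 16645 for the gene.

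The UTP-A complex, which binds the growing precursor first, had medians of -0.01 and -0.25. UTP15 had the lowest estimate, -0.68 ± 0.33 in the ridaforolimus line. Against the everolimus line it was at -0.82 ± 0.33 (adjusted p = 0.320, and 0.0476 without a filter on low counts, the only setting under 0.05). Both ridaforolimus libraries of UTP15 were below both parental ones, at 38.4 and 18.8 against 40.7 and 50.8 CPM. WDR43 lay below the parental pair in all 4 resistant libraries, with log2 fold changes of -0.28 ± 0.27 and -0.51 ± 0.27. HEATR1, WDR75 and UTP4 were at -0.25, -0.17 and -0.21 in the ridaforolimus line, and their parental and ridaforolimus libraries overlapped.

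Among the other small-subunit factors 2 genes had estimates above 0 in the ridaforolimus line. NOB1 (ENSG00000141101, chr16:69741867-69754940), the nuclease that makes the mature end of 18S RNA, was at 44.8 and 50.8 CPM in the parental, 39.8 and 46.5 in the everolimus and 63.5 and 53.3 in the ridaforolimus libraries. It was the only member with both ridaforolimus libraries above both parental ones, and above both everolimus ones, at 0.29 ± 0.20 and 0.44 ± 0.20 (adjusted p = 0.537 and 0.370). UTP20 (ENSG00000120800, chr12:101280109-101386616), a large scaffold protein, was at 75.9 and 98.7, 106 and 158, and 125 and 93.8 CPM. Both everolimus libraries lay above the parental pair, and its log2 fold change there was 0.60 ± 0.26 (adjusted p = 0.566). DDX10, a helicase, was lower at -0.62 ± 0.25 in the ridaforolimus line (adjusted p = 0.311). BYSL (-0.44), RRP9 (-0.39), NOP14 (-0.25), RRP12 (-0.12) and the RNA acetyltransferase gene NAT10 (-0.08) lay between on the same log2 scale. The role medians were 0.02 and -0.18.

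The 14 large-subunit factors had medians of 0.07 and -0.32, with 13 of 14 below 0 in the ridaforolimus line and 14 of 14 below 0 against the everolimus line. BOP1 (ENSG00000261236, chr8:144262102-144291370), which acts with PES1 and WDR12 in the PeBoW complex, was at 116 and 145 CPM in the parental, 107 and 183 in the everolimus and 122 and 76.7 in the ridaforolimus libraries, so its groups overlapped. PES1 and WDR12 were at -0.49 ± 0.24 and -0.25 ± 0.20 in the ridaforolimus line, beside -0.39 ± 0.32 for BOP1. RRS1 (ENSG00000179041, chr8:66429028-66430733), which loads the 5S particle, was at 18.9 and 14.8, 14.7 and 22.5, and 12.04 and 7.45 CPM. Its 2 ridaforolimus libraries were below the other 4, at -0.79 ± 0.33 over parental cells (adjusted p = 0.322) and -0.94 ± 0.33 over the everolimus line (adjusted p = 0.254). Over parental cells it was -0.48 without ridaforolimus 2 and -1.19 without ridaforolimus 1.

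NOP2 (ENSG00000111641, chr12:6556863-6568691) was at 1.22 and 0.916 CPM in the parental, 1.88 and 1.78 in the everolimus and 0.838 and 0.731 in the ridaforolimus libraries, from 10 to 27 counts each. Its 3 groups did not overlap, and it had the largest estimate of any member between the lines, -1.22 ± 0.43 (adjusted p = 0.262). GNL3 (ENSG00000163938, chr3:52681156-52694492), nucleostemin, was at 109 and 106, 104 and 135, and 106 and 85.4 CPM, with both ridaforolimus libraries below the parental pair. Ridaforolimus 1 was only just below parental 2, at 105.9 against 106.1 CPM. GTPBP4 lay below the parental pair in all 4 resistant libraries, at -0.43 ± 0.23 and -0.50 ± 0.23. NOP16 (-0.57), GNL2 (-0.33), NIP7 (-0.32), MRTO4 (-0.31), DDX56 (-0.22), DDX18 (-0.04) and PPAN (0.02) completed the role on the log2 scale in the ridaforolimus line. The helicase gene DDX21 and the nucleolar protein gene LYAR stood at -0.36 ± 0.27 and -0.40 ± 0.29 in the everolimus line and at -0.26 ± 0.27 and -0.42 ± 0.29 in the ridaforolimus line.

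Side by side, 7 members had all 4 resistant libraries below both parental ones: DKC1, NOP10, POLR1C, RRN3, WDR43, GTPBP4 and LYAR. Over all genes tested 9.74% did so. No member had all 4 above, where 9.54% of all genes did. POLR1A and NOP2 lay above the parental pair in one line and below it in the other, an arrangement found in 5.25% of all genes. In the ridaforolimus line the median was -0.34 for the 17 members with CACGTG, -0.32 for the 21 matched without it and -0.12 for the 7 not matched. In the everolimus line it was -0.09, 0.04 and 0.14, with 11 of 17, 10 of 21 and 1 of 7 below 0. These differences were not tested.

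Most other genes of the pathway also had estimates below 0 in the ridaforolimus line. Of 179 further genes on 9 lists, 177 were tested and none passed the adjusted threshold in any comparison. Of the 98 tested on 4 lists of further ribosome biogenesis factors (other Pol I subunits, snoRNP assembly, small-subunit and large-subunit factors), 83 were below 0 in the ridaforolimus line (median -0.40) and 65 in the everolimus line (median -0.08). Genes at a mean of 10 CPM or more were below 0 in 57.7% and 53.1% of cases. Both ridaforolimus libraries lay below both parental ones for 56 of these 98 genes and above for 6, where 24.3% and 25.1% of all genes did. Among the 10300 genes at 10 CPM or more the counts were 3238 and 2213. As with the members, ridaforolimus 2 was the lowest library for 32 of 36 further small-subunit and 37 of 43 further large-subunit factors. Over all 21223 genes tested it was the lowest for 4905. The median relative levels of the small-subunit and large-subunit lists were 0.006 and 0.027 in ridaforolimus 1, and -0.50 in ridaforolimus 2 for both lists. The 36 further small-subunit factors had a median of -0.48, from LTV1, which helps export the small subunit, at -0.96 ± 0.27 (adjusted p = 0.186) to the methyltransferase gene EMG1 at 0.52 ± 0.36. The 43 further large-subunit factors had a median of -0.37, from WDR74 at -0.86 ± 0.24 (adjusted p = 0.175) to LAS1L at 0.50 ± 0.23. PIH1D1, a subunit of the R2TP complex that assembles snoRNPs, had the lowest adjusted p of all these genes, 0.103 at -0.90 ± 0.19. It was the lowest and SHQ1, at 0.18 ± 0.23, the highest of the assembly list, whose median was -0.34.

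The remaining Pol I subunits and the SL1 promoter complex had a median of -0.10, from POLR1G at -0.98 ± 0.41 to POLR1D at 0.43 ± 0.20. The RNA exosome, which trims precursors, had a median of -0.28, from EXOSC9 at -0.68 to MPHOSPH6 at 0.07. The Pol III machinery, which makes 5S and transfer RNA, had a median of -0.26, from GTF3C6 at -0.997 ± 0.35 to POLR3A at 0.23 ± 0.18. The snoRNA host genes, many of whose spliced transcripts are degraded in a translation-dependent way, had medians of 0.12 in the everolimus and -0.02 in the ridaforolimus line, the latter from SNHG32 at -0.69 to SNHG29 at 0.50. The 9 genes of the MYC network had medians of 0.01 and 0.10. MXI1 was their highest in the ridaforolimus line at 0.97 ± 0.29 (adjusted p = 0.213), and MXD1 their lowest at -0.66 ± 0.41. The 21 proliferation markers had medians of 0.19 and -0.26, the latter from CCNB1 at -0.79 ± 0.38 to CDK1 at 0.42 ± 0.41.

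**Figure D3:**
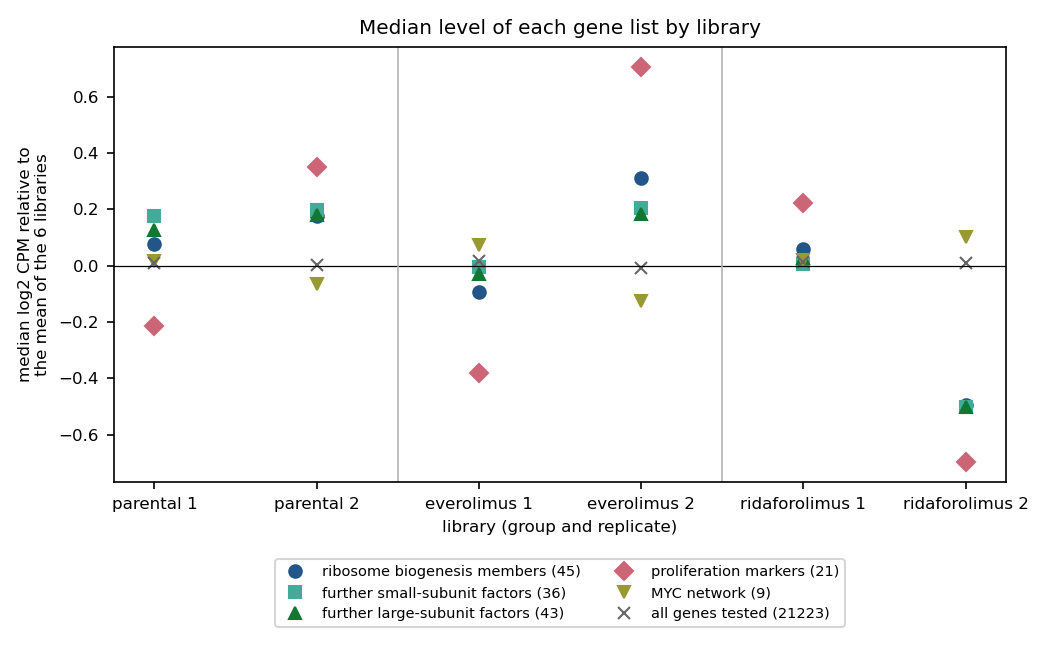
Median log2 CPM of each list relative to the mean of the 6 libraries (y axis) in each library (x axis), for the 45 ribosome biogenesis genes and 4 other lists, with all tested genes as crosses. The members lie at 0.31 in everolimus 2 and -0.49 in ridaforolimus 2, the proliferation markers at 0.71 and -0.70, and the MYC network at -0.13 and 0.10.

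The estimates of the members were set against their neighbours on the chromosome, tested genes at 5 CPM or more within 5 Mb. In the ridaforolimus line the median of the neighbours' medians was -0.02, and 40 of 45 members lay below their own neighbours, by a median of 0.34 on the log2 scale. The figures were 25 of 45 in the everolimus line and 39 of 45 between the lines. DKC1 had the lowest neighbourhood in the ridaforolimus line: 42 of its 47 neighbours on the X chromosome were below 0 with a median of -0.46, so DKC1 was 0.47 below them. With DKC1 left out, 39 of 44 members were below 0 in that line, with a median of -0.31. NAT10 had the highest neighbourhood, at 0.34. NOP56, NOP10 and RRS1 lay 0.69, 0.71 and 0.88 below their neighbours. NOB1, with both ridaforolimus libraries above the parental pair, lay 0.05 above its neighbours, whose median was 0.23. Between the lines NOB1 lay 0.17 above a neighbour median of 0.26.

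**Figure D4:**
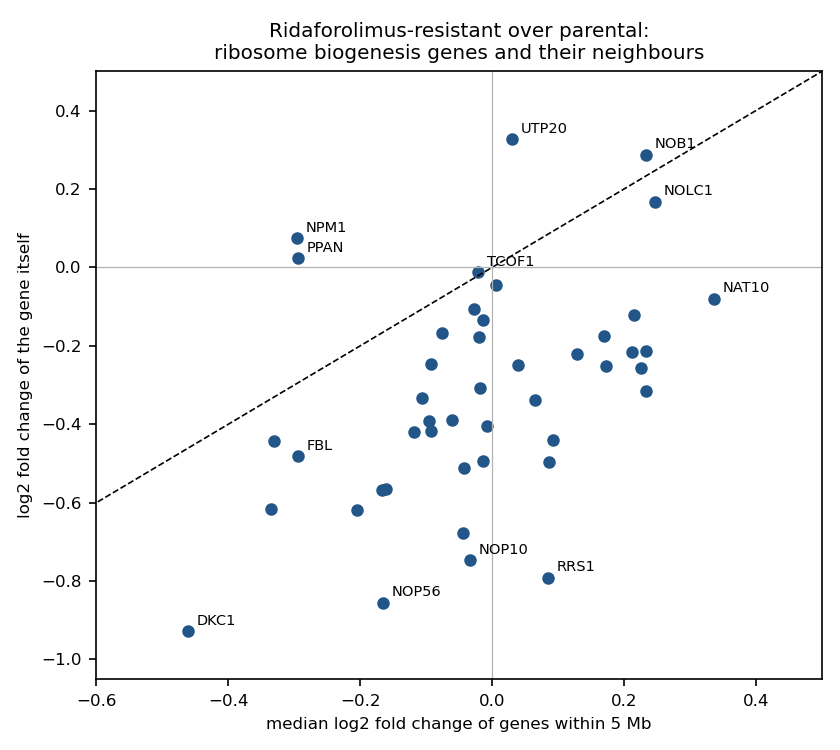
Log2 fold change of each of the 45 genes in ridaforolimus-resistant over parental cells (y axis) against the median log2 fold change of the tested genes within 5 Mb of it (x axis), with the dashed line marking equality. The line has 40 points below it, and DKC1 lies at -0.46 on the x axis and -0.93 on the y axis.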

How the data were processed

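All 6 libraries, of polyadenylated RNA (TruSeq Stranded mRNA kit, per the labels' protocols), were used. The values the authors deposited are raw counts of reads by Ensembl gene ID, neither normalised nor pooled. Trim Galore 0.6.6, STAR 2.7.9a, HTSeq 0.13.5, DESeq2 and build GRCh38 are named per the submitters' processing notes. The annotation release was not stated, and the strand setting of the counting is not given in the sources used here. Of 69292 IDs, 28459 had no count, 62625 matched a symbol and 58279 a position in GENCODE 29 (GRCh38), which gave the coordinates and exon lengths.

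The main test was edgeR 4.0.16 (R 4.3.3): TMM, filterByExpr, glmQLFit and glmQLFTest on 3 groups, all 6 libraries, 3 residual degrees of freedom, two-sided, Benjamini-Hochberg over 21223 genes, threshold 0.05. Log2 fold changes use a prior count of 0.125 and are given ± SE. CPM are counts over the TMM-scaled library size. Relative log2 levels add 2 counts. The script was tested on simulated data. Alternatives were RLE size factors, DESeq2 1.42.0, limma-voom (limma 3.58.1), other filters, 2-group fits, a replicate block, prior count 2 and leaving out each library. Libraries of a group differed by more than counting error (chi-square per degree of freedom 15.8 to 39.2), so none was a repeat deposit of another. This does not show separate cultures.

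The members and gene lists were chosen with earlier results of these data known. All members are named. Values by library are given for the 4 of lowest p and the highest and lowest estimate in each comparison and for 12 chosen by role. Of each other list the highest and lowest estimates at 5 CPM or more in the ridaforolimus line are named. Overlapping and antisense genes and copies such as pseudogenes make some counts uncertain.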

Additional observations from a re-analysis of the deposited data

Results flagged for a closer look

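POLR1A was on opposite sides of the parental libraries in the resistant lines: both everolimus libraries were higher (341 and 358 against 299.7 and 293 CPM) and both ridaforolimus libraries lower (260 and 189 CPM). The difference between the lines was -0.64 on the log2 scale, with an adjusted p of 0.230 in edgeR, so it did not pass the threshold. NOP2 showed the same arrangement at 10 to 27 counts per library, with a difference of -1.22 and an adjusted p of 0.262. In both genes opposite directions, not a passed test, brought them here. No other member had this arrangement, but 5.25% of all genes tested had it (1114 of 21223). The arrangement alone therefore does not set these members apart from other genes.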

How the results depend on the processing

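The count of changed genes moved widely with the setting. For everolimus-resistant over parental cells (1 gene) it was 150 with DESeq2, 493 without a filter on low counts, and 0 with a filter of 5 CPM in 2 libraries, in the fit of 2 groups and with the replicate block. For ridaforolimus-resistant over parental cells (68) it was 574 with DESeq2, 1195 without a filter, 127 in the fit of 2 groups and 28 with the block. Between the lines (158) it was 657 with DESeq2, 1362 without a filter, 81 at 5 CPM, 0 in the fit of 2 groups and 49 with the block. Leaving out 1 library gave 0 to 3, 1 to 276 and 19 to 123 genes; for the ridaforolimus line over parental cells it was 1 without either parental library and 2 without ridaforolimus 2, but 276 and 236 without everolimus 1 and 2, and between the lines it was 19 without ridaforolimus 2.

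Members passed the threshold in 1 setting: without a filter, 2 passed in the ridaforolimus line over parental cells (NOP56 and DKC1, adjusted p = 0.0175 and 0.00667) and 2 between the lines (NOP56 and UTP15, at 0.0414 and 0.0476). Of the further listed genes, none passed in the main fit; without a filter 1, 7 and 6 did in the 3 comparisons, and with DESeq2 1 and 2 did in those with the ridaforolimus line. The members' median ranged from -0.23 to 0.19, from -0.69 to -0.047 and from -0.54 to -0.063 when 1 library was left out. NOP2 was not tested at 5 CPM.

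Of 711 values under these alternatives, from the 17 members chosen for values by library, 687 kept direction and side of the threshold. UTP15 and the other members were not among these 17. The alternatives that left out no single library reuse the same libraries, and no sign changed in them. The 21 values that changed sign all did so on leaving out a library, 8 of 51 of them without everolimus 2. In the everolimus line the ranges were BOP1 -0.30 to 0.49, FBL -0.63 to 0.18, GNL3 -0.049 to 0.34, NCL -0.14 to 0.43, NOP56 -0.45 to 0.21, POLR1B -0.045 to 0.13, RRS1 -0.20 to 0.42 and UBTF -0.10 to 0.41. In the ridaforolimus line they were NCL -0.61 to 0.090, NPM1 -0.18 to 0.29, POLR1B -0.43 to 0.11 and UBTF -0.24 to 0.016. Between the lines they were FBL -0.66 to 0.15, POLR1B -0.47 to 0.081, RRN3 -0.17 to 0.35 and UTP20 -0.54 to 0.044. Members that kept their sign in the ridaforolimus line also moved, such as FBL from -0.75 to -0.26, RRN3 from -0.70 to -0.18, POLR1C from -0.87 to -0.40 and UTP20 from 0.091 to 0.53, each between leaving out ridaforolimus 1 and 2. The cause was not tested.

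Replicate numbers are shared between groups, but no label says that they pair samples. The correlation of same-numbered deviations was 0.51 between parental and everolimus, -0.38 between parental and ridaforolimus and -0.36 between the resistant lines over 10300 genes, so the block is given only as above, and with it 0 members passed.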
